A study of Mus musculus with 3 samples.

Results

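Cluster 11 is one of the 22 groups into which the deposited annotation sorts the nuclei of the mouse olfactory bulb, and the annotation gives it no name. Its members were all nuclei carrying that cluster number: 972 of 31703 retained nuclei, with 142 from mouse 1, 706 from mouse 2 and 124 from mouse 3. The genes Mybpc1, Npy, Foxd3 and Fabp7 had been proposed as its markers, and olfactory ensheathing glia as its candidate identity. The study profiled a single group of 3 adult C57Bl/6 mice with no treatment contrast. In every mouse a retrogradely transported virus carrying a histone-tagged green fluorescent protein under the CAG promoter (retroAAV-CAG-H2B-GFP) had been injected into the piriform cortex and the anterior olfactory nucleus, the nuclei of the bulb were sorted for that fluorescence, and 1 droplet library was sequenced per mouse. The virus and the sort were designed for neurons that project to those cortical areas, so glial nuclei are members of the data in spite of the design, and their number here is no estimate of their number in the bulb.

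Olfactory ensheathing glia are neural crest-derived cells that wrap the axons of olfactory sensory neurons on their way from the nasal epithelium and form much of the outer, nerve-fibre layer of the bulb. They share the regulator Sox10 with Schwann cells and oligodendrocytes, carry lipid and fatty acid binding proteins such as Apoe and Fabp7, and produce extracellular matrix and growth-supporting factors. Astrocytes of the deeper layers are told from them by the water channel Aqp4, and oligodendrocytes by compact myelin genes.

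Before the results, a feature of the nuclei in mouse 2 has to be given. Scrublet, a program that scores each nucleus against simulated pairs, called 12 of 142 cluster 11 nuclei doublets in mouse 1 (8.45%), 206 of 706 in mouse 2 (29.2%) and 10 of 124 in mouse 3 (8.06%), against 3.88%, 12.2% and 3.87% of all nuclei of these mice. The UMIs (unique molecular identifiers, the counted transcripts) of 7 pan-neuronal genes such as Snap25, Syt1 and Meg3 had a median of 0.0893%, 0.157% and 0.0584% of a cluster 11 nucleus in mice 1, 2 and 3, against 1.95%, 2.33% and 2.36% in the inhibitory neurons of cluster 0. However, 239 of the 972 nuclei (24.6%) exceeded 0.6%, a limit chosen after the values were seen, and 214 of these 239 were also called by Scrublet. They had a median of 11688 UMIs against 4407 in the other nuclei of the cluster. The same share in mouse 2 was found in astrocyte-like cluster 9, where 31.7% of nuclei exceeded the limit, and in oligodendrocyte-like cluster 16, where 28.5% did. The values below keep these nuclei unless they are said to leave them out, and the main ones are also given without them. Few barcodes occurred in more than one mouse. Mouse 1 had 39 barcodes in common with mouse 2 and 8 with mouse 3, the pair of mouse 2 and mouse 3 had 35, and none of these was a cluster 11 nucleus in both mice.

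**Figure D1:**
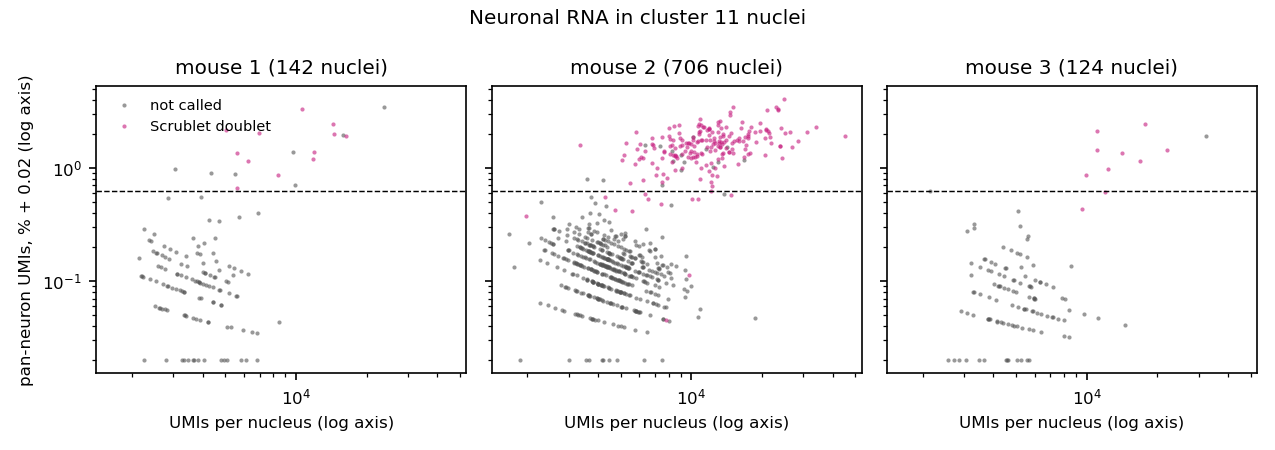
Each point is 1 cluster 11 nucleus, by its UMIs (x, log axis) and the percent of its UMIs from 7 pan-neuronal genes with 0.02 added (y, log axis), in the 3 mice, with Scrublet calls in pink and the limit of 0.6% as a dashed line. In mouse 2 a separate cloud of deeper nuclei with neuronal RNA holds 29.7% of the cluster, against 13.4% in mouse 1 and 8.06% in mouse 3.

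Of all nuclei, cluster 11 held 2.43% (mouse 1), 3.35% (mouse 2) and 2.61% (mouse 3). The exact 95% limits were 2.05 and 2.86, 3.11 and 3.60, and 2.17 and 3.10, in this order, and cover counting error only. Without Scrublet calls the shares were 2.31%, 2.70% and 2.50%. The nuclei were shallow. Their median was 3920.5, 5228.5 and 5095 UMIs in mice 1, 2 and 3, and 1617.5, 2159 and 1872.5 genes. All other nuclei together had medians of 8063, 8514 and 10760 UMIs. The cluster was lower in each of the 3 mice (mean 4748 ± 720 against 9112 ± 1445, SD, n = 3; exact permutation test over mice, two-sided, p = 0.10, the smallest that 3 against 3 can give; paired by mouse, exact permutation p = 0.25, the smallest that 3 pairs can give). Against cluster 9, median UMIs were lower in 2 of 3 mice (4748 ± 720 against 5089 ± 1137, SD, n = 3; exact permutation p = 0.60, paired 0.50), and genes per nucleus were lower in 3 of 3 (1883 ± 271 against 1997 ± 299, SD, n = 3; exact permutation p = 0.60, paired 0.25). The percent of mitochondrial UMIs was higher in 3 of 3 mice, with 0.105, 0.157 and 0.0795 against 0.0720, 0.138 and 0.0760 (exact permutation p = 0.50, paired 0.25). With 3 mice neither form of the test can pass 0.05.

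To describe genes, UMIs were summed per mouse and cluster and expressed as CPM, the UMIs of a gene per 1000000 UMIs of the library. A gene was counted as standing apart when the lowest of the 3 cluster 11 libraries was above the highest of the 62 other libraries of at least 10 nuclei. Because the clusters were formed on the same counts, these values are descriptions and carry no test. The 4 proposed markers all stood apart. Mybpc1, which encodes a myosin-binding protein of muscle, was at 386, 377 and 607 CPM in mice 1, 2 and 3, and the highest other library, of the shallow cluster 21 in mouse 2, was at 16.9. Foxd3, a forkhead transcription factor of the neural crest, was at 323, 177 and 279 CPM, against at most 6.78 elsewhere. For both genes the cluster 11 libraries lay far above all others.

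Fabp7, the brain fatty acid binding protein, was at 3416, 1942 and 1984 CPM, and the next cluster was astrocyte-like cluster 9 with 223 ± 12.5 (SD, n = 3). Npy, which encodes neuropeptide Y, was at 5625, 2392 and 2922 CPM, followed by inhibitory neuron cluster 3 with 420 ± 289 (SD, n = 3). On the log2 scale with 5 CPM added, the cluster mean exceeded the next cluster by 5.10 for Mybpc1, 4.98 for Foxd3, 3.43 for Fabp7 and 3.10 for Npy. With Scrublet calls left out these differences were 6.01, 5.32, 3.38 and 3.37, in this order. Without Scrublet calls the values of mouse 2 were over 1.5 times higher, at 590 CPM for Mybpc1, 267 for Foxd3, 3025 for Fabp7 and 3601 for Npy, and those of mice 1 and 3 moved less. With all nuclei kept, mouse 1 was the highest for Npy and Fabp7 and mouse 3 for Mybpc1, and no order of the mice held for all markers.

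**Figure D2:**
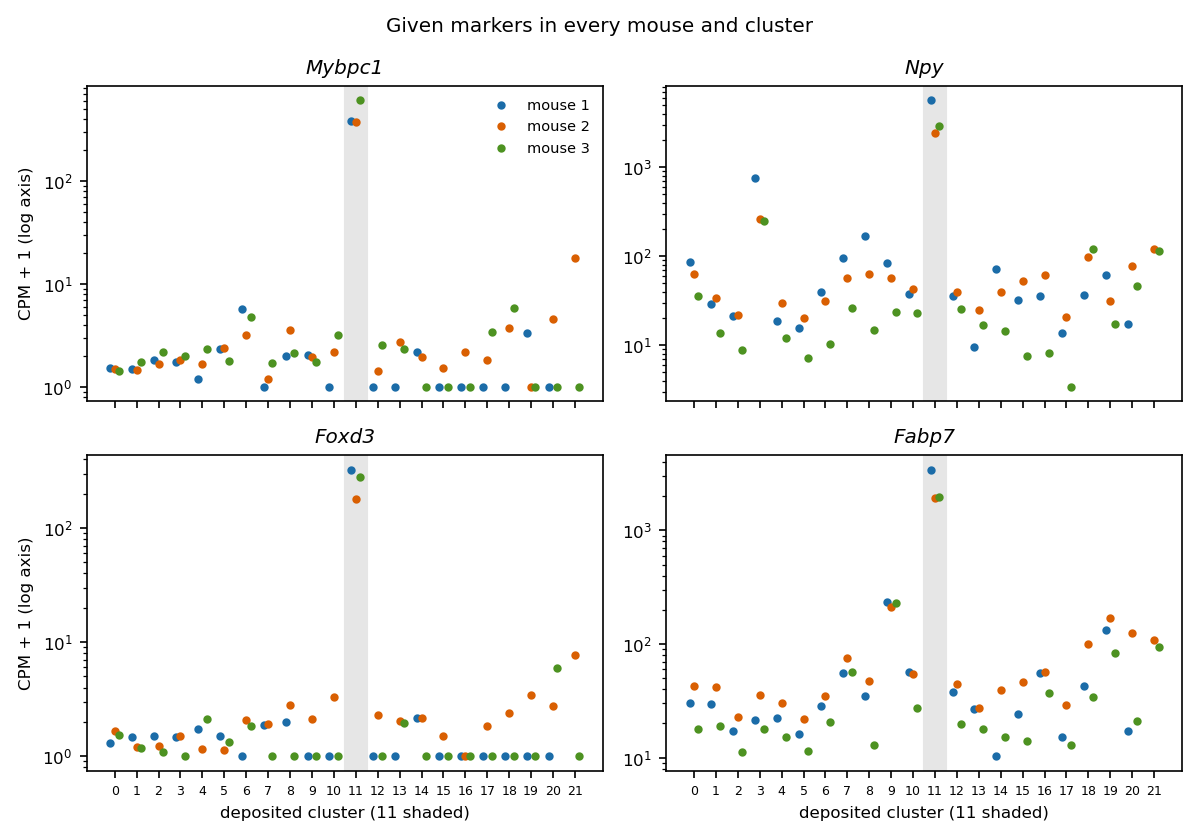
CPM plus 1 (y, log axis) of the 4 proposed markers in every library of at least 10 nuclei, by deposited cluster (x) and mouse (colour), with cluster 11 shaded. In each panel the 3 cluster 11 libraries lie above every other library, with cluster 3 next for Npy and cluster 9 next for Fabp7.

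Among single nuclei the markers were not equally common. After each nucleus was thinned to 2000 UMIs, a UMI of Npy was found in 92.3%, 87.0% and 82.3% of cluster 11 nuclei of mice 1, 2 and 3, and one of Fabp7 in 91.5%, 83.6% and 83.1%. Mybpc1 was found in 35.9%, 40.2% and 52.4%, and Foxd3 in 48.6%, 30.2% and 40.3%. Without doublet-like nuclei, a choice made after seeing the data, the shares were 91.1%, 90.6% and 85.7% for Npy, 93.5%, 93.1% and 84.8% for Fabp7, 41.5%, 43.9% and 50.9% for Mybpc1 and 52.8%, 38.3% and 42.0% for Foxd3. Astrocyte-like cluster 9, which should lack these genes apart from Fabp7, gave the background, with median depths of 3839.5, 5364 and 6063 UMIs before thinning. Mybpc1 was detected there in 0%, 0% and 0.524% of nuclei and Foxd3 in 0%, 0.333% and 0%, but Npy in 12.4%, 14% and 5.76%. For Fabp7, which cluster 9 held in 29.6%, 29.0% and 32.5% of nuclei, the background was read in the inhibitory neurons of cluster 0, with 3.33%, 9.33% and 4.00% at median depths of 6920, 7494.5 and 9001 UMIs before thinning. In cluster 0 Npy was found in 9.33%, 10.7% and 5.00%, and free RNA of this abundant transcript was not measured separately. Only 4 of the 972 cluster 11 nuclei, all of mouse 2, were too shallow to enter.

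The candidate identity was checked against fixed lists. Of 19 ensheathing glia genes, the 4 markers included, 9 stood apart above all other clusters, 12 had their highest mean in cluster 11 and 13 were over 2-fold higher than cluster 9 in every mouse. Over all 18541 genes with at least 100 UMIs, 288 stood apart in this way (1.55%), 1101 had their highest mean in cluster 11 (5.94%), 681 were over 2-fold higher than cluster 9 in every mouse (3.67%), and no gene stood below every other library (0 genes, 0%). Without Scrublet calls 375 genes stood apart above, 276 of them among the 288, and 9 below. The ensheathing list had been written with earlier results of these data known, so its count is no independent support.

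Frzb, a secreted Wnt antagonist, was at 750, 419 and 553 CPM, and the next cluster at 45.0 ± 15.8 (SD, n = 2). The heparin-binding growth factor Ptn reached a mean of 13811 ± 4095 CPM (SD, n = 3), the next cluster 2353. The lipocalin Apod had 12010, 5319 and 7305 CPM, above cluster 18 with 3730 ± 1278 (SD, n = 3). The matrix protein gene Fbln2 and the protease gene Prss56 also stood apart. Sox10, the crest and oligodendroglial regulator, was at 519, 341 and 569 CPM, second to OPC-like cluster 19 with 550 ± 128 (SD, n = 3). Erbb3, the neuregulin receptor of Schwann and ensheathing lineages, was highest in cluster 11 at 165 ± 39.8 CPM (SD, n = 3). In contrast, Ngfr, the low-affinity neurotrophin receptor, was at 0.197 CPM, Gldn at 0.886, and Gfra3 was listed at 0 in all 3 mice, so these 3 members of the list were at or near 0.

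Other cell types were checked in the same way. The 15 astrocyte genes summed to 5691, 3737 and 4716 CPM in mice 1, 2 and 3 of cluster 11, against 12097, 7551 and 11936 in cluster 9. The defining gene Aqp4 was near 0, with 7.48, 7.49 and 5.32 CPM against 640, 386 and 554. Gfap, a filament gene known from both astrocytes and ensheathing glia, had a mean of 8.04 ± 2.37 CPM (SD, n = 3) against 153 in cluster 9. The 9 microglial genes summed to at most 151 CPM against 8963 in cluster 20, the 7 fibroblast genes to at most 18 against 2489 in cluster 18, and the 7 mural genes to at most 35.9 against 856. The 13 oligodendrocyte genes summed to 3879, 2129 and 2664 CPM against 31391 in cluster 16, and the defining genes Mog, Mobp and Opalin had means of 8.75, 8.03 and 1.02 CPM. The 11 OPC genes, Sox10 included, summed to 965, 955 and 1068 CPM against 11384 in cluster 19. The 7 endothelial genes summed to 988, 476 and 553 against 1740 in cluster 18, mostly as Cldn5. The exception was the list of 7 myelinating Schwann cell genes, whose highest summed mean was that of cluster 11 itself at 162 CPM, mostly as Pmp22, while the defining genes Prx and Egr2 were at 1.65 and 1.23. The 7 pan-neuronal genes summed to 5932, 9830 and 3742 CPM, and without Scrublet calls to 3403, 1882 and 1624, against a mean of 27199 in cluster 1, the highest. By the fixed markers cluster 11 may be called ensheathing glia-like. The name rests on a list that is no independent support, and 6 of the 25 genes that stood apart most widely were on it (Mybpc1, Foxd3, Fabp7, Frzb, Fbln2 and Prss56).

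**Figure D3:**
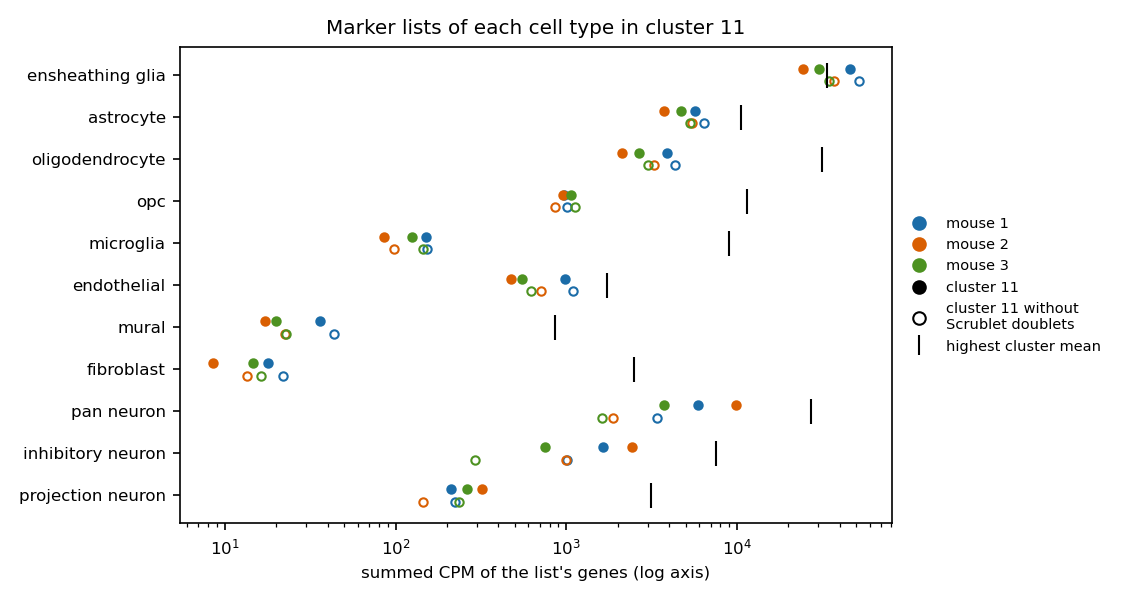
Summed CPM (x, log axis) of the genes of the ensheathing glia list and of 10 lists of other glial, vascular and neuronal types (y) in cluster 11, per mouse (colour), with all nuclei (filled) and without Scrublet doublets (open), beside the highest mean of any cluster (bar). The ensheathing list is highest in cluster 11, and the 10 other lists drawn lie below the highest cluster in all 3 mice; the myelinating Schwann cell list is not drawn, with the neuronal sums of mouse 2 falling most without doublets.

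The 25 genes that stood apart most widely included membrane, matrix and secreted proteins. Clca3a1, a chloride channel accessory gene, led with 634, 253 and 268 CPM against at most 11 in any other library. It was followed by Mybpc1 and Foxd3, then by the long noncoding RNA Gm34838 with 507, 480 and 613 CPM against 35.5, and by the water channel Aqp1 with 238, 148 and 189 CPM against 7.65. Sntb1, which encodes a syntrophin that binds dystrophin, had 1188, 1157 and 1427 CPM, with the next cluster at 71.0 ± 7.23 (SD, n = 3). The chemokine receptor Cxcr4 was at 215, 90.9 and 210 CPM, against at most 14.3 elsewhere. Without Scrublet calls the values of mouse 2 rose most, to 395 CPM for Clca3a1, 714 for Gm34838, 233 for Aqp1, 1781 for Sntb1 and 150 for Cxcr4.

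Secreted proteins of this group were Frzb, Sfrp5 (a further Wnt antagonist, at 92.8, 48.7 and 41.2 CPM), the coagulation factor gene F5 (98.8, 65.5 and 126), angiotensinogen Agt (359, 173 and 191) and Fbln2. Enzymes and carriers were Fabp7, Mgst1, a glutathione transferase, Cyp39a1, a sterol hydroxylase, Gdpd4, and Slc43a3. The remaining members were the receptor gene Il13ra2, the cadherin gene Cdh3, the tetraspanin gene Tspan18, Myoz1, Prss56, the odorant receptor gene Olfr142, and 3 long noncoding RNAs (Gm34838, Gm12688 and Gm30173). Olfr142, at 31.4, 48.3 and 67.8 CPM, was listed at 0 in all 3 cluster 9 libraries. All 25 had at least 196 UMIs in cluster 11. The 5 genes most like Mybpc1 across the 22 clusters by Spearman correlation of mean CPM were Erap1 (0.776), Ltc4s (0.775), Traf3ip3 (0.763), Aph1c (0.752) and Ppp1r1c (0.746). None of these 5 had its highest mean in cluster 11, where their means lay between 1.45 and 22.7 CPM.

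Gm12688 and Foxd3 are neighbours. In GENCODE M21 (GRCm38) Foxd3 lies at chr4:99656299-99658622 on the forward strand and Gm12688 at chr4:99653607-99654983 on the reverse strand, with 1316 bases between their starts. Gm12688 was at 95.8, 81.2 and 150 CPM and at most 3.39 in any other library, and Foxd3 and Gm12688 were both highest in cluster 11 in every mouse. Mybpc1 (chr10:88518279-88605152, reverse strand) overlaps the oppositely transcribed Gm48752, Clca3a1 overlaps Gm34866, Nr2f2 overlaps B130024G19Rik, and F5 (chr1:164151838-164220277, forward strand) overlaps Gm16548 and, on its own strand, Gm16588. How the counting treated strand is not given in the sources used here, so these values may hold reads of the partner.

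The promoters of these genes were read from the RefSeq table (GRCm38.p6, 250 bases before to 50 after the start), which held 207 of the 288 genes standing apart and 18 of the 25 named ones. ACAAAG, the core of the Sox factor motif, was present on either strand in 20.3% of the 207 promoters, against 14.9% of 13060 promoters of all genes entered and 18.7% of all 27025 promoters in the table. The forkhead sequence GTAAACA was in 2.90% against 2.73% and 3.55%, and GCCNNNGGC of the AP-2 factors in 19.8% against 23.0% and 16.5%. None of the promoters of Mybpc1, Npy, Foxd3 and Fabp7 held any of the 3. Of the 18 named genes only F5 held the Sox core, and its promoter is shown with those of the markers Foxd3 and Mybpc1, which held no match, with motif matches in capitals. The F5 window is chr1:164151585-164151884 (forward strand), the Foxd3 window chr4:99656049-99656348 (forward strand) and the Mybpc1 window chr10:88605103-88605402 (reverse strand). The capitals in F5 mark 1 match to ACAAAG on the reverse strand and 1 match to GCCNNNGGC.
F5: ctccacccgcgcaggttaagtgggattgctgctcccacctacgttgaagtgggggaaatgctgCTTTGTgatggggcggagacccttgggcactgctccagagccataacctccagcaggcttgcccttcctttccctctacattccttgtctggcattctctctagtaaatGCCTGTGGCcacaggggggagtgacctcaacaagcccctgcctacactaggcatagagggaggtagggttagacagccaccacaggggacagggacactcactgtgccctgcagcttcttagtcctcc
Foxd3: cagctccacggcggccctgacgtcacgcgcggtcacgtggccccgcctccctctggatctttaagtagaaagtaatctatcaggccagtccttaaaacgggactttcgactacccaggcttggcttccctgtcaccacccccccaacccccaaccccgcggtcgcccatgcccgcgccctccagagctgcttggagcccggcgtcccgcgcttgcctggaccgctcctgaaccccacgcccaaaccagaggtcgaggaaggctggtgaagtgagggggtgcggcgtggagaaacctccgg
Mybpc1: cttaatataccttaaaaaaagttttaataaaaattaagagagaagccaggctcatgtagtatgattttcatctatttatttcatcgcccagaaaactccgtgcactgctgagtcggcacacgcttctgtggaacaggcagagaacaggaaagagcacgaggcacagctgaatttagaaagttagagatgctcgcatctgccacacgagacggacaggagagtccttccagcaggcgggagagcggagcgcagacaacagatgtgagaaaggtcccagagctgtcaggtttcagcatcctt
A match describes letters in the window, not a bound factor.

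Gene groups by function were compared next, each by the count of members standing apart beside the background of 1.55%. Lipid handling had 5 of 16 measured members (Fabp7, Apoe, Apod, Abca8a and Scd1), and Apoe, the apolipoprotein that carries cholesterol between cells, reached 22993 ± 10344 CPM (SD, n = 3) against 8787 in cluster 9. The Notch group had 3 of 14, which were its targets Hes5 (682 ± 289 CPM against 275 in cluster 9), Hey2 (210 ± 37.8 against 52.5 in cluster 5) and Heyl (81.2 ± 20.4 against 20.5 in cluster 18). The receptors Notch1 and Notch2 also had their highest mean in cluster 11, with 104 ± 14.8 and 371 ± 89.9 CPM, but did not stand apart, and the ligands Dll1, Dll3 and Jag2 were at 3.22, 0.263 and 3.31 CPM.

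Matrix and basement membrane genes had 5 of 38 (Col11a1, Col16a1, Agrn, Matn4 and Fbln2). Col11a1, a fibrillar collagen chain, was at 594 ± 118 CPM against 75.6 in cluster 19, and the laminin chain Lamc1 at 230 ± 45.8 CPM against 145 in vascular cluster 18. Of the Wnt group, the antagonists Frzb and Sfrp5 stood apart, 2 of 23, and Lef1, a transcription factor of that pathway, had its highest mean in cluster 11 at 184 ± 94.7 CPM. Growth factors of the neurotrophin and heparin-binding group had 2 of 16 (Ptn and Mdk), whereas Bdnf, Ntf3 and Gdnf were at 6.65, 0.827 and 0.526 CPM. Of 31 adhesion genes Ncam1 and the laminin receptor chain Itga7 stood apart, Ncam1 with 3639 ± 420 CPM against 1298 in cluster 19. Efna5 among 37 guidance genes, Bmp7 among 26 TGF-beta family genes, Grik3 among 41 receptor and channel genes, and Npy among 23 neuropeptide and granin genes were the lone members to stand apart, and none of the 16 phagocytosis genes did.

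The most similar clusters by Spearman correlation of mean log2(CPM + 5) over 18541 genes were cluster 9 (0.894, astrocyte-like), cluster 19 (0.861, OPC-like) and cluster 18 (0.855, vascular and fibroblast genes). Within mice the correlation with cluster 9 was 0.847, 0.920 and 0.842. Compared with cluster 9, 681 genes were over 2-fold higher in every mouse (3.67%) and 591 over 2-fold lower (3.19%). Against cluster 19 the counts were 861 (4.64%) and 552 (2.98%), and against cluster 18 they were 592 (3.19%) and 715 (3.86%). With Scrublet calls left out, 885 genes were higher and 848 lower than in cluster 9. Without the nuclei of over 0.6% pan-neuronal UMIs in the glial clusters 895 were higher and 910 lower.

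The 10 largest differences above cluster 9 were Apod, Gm29683, Cldn5, Vtn, Nr2f2, Mybpc1, Sox10, Npy, Prima1 and Clca3a1. Apod led with a mean log2 ratio of 7.23 (7.49, 6.37 and 7.83 in the 3 mice). Nr2f2, a nuclear receptor of the COUP family, was at 974, 614 and 1035 CPM against 3.15, 7.26 and 2.27, and Vtn, which encodes vitronectin, at 1785, 773 and 803 CPM against 10.5, 4.65 and 3.02. Cldn5, a tight junction gene best known from brain endothelium, was at 952, 433 and 486 CPM against 0, 1.12 and 0. It exceeded even vascular cluster 18, at 313 ± 163 (SD, n = 3), although the endothelial genes Flt1, Cdh5 and Slco1a4 were at 2.34, 0.0657 and 0.131 CPM in cluster 11.

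The 10 largest differences below cluster 9 were Gpc5, Slc6a11, Rorb, Hs3st3a1, Aqp4, S1pr1, Slc39a12, Folh1, Gm3764 and Gldc. The glypican Gpc5 was at 40.4, 48.3 and 26.6 CPM against 6595, 4980 and 7787, a mean log2 ratio of -7.23. Slc6a11, a GABA transporter, was at 13.5, 16 and 2.66 CPM against 1236, 711 and 1037. Of the 15 astrocyte genes 11 were over 2-fold lower in every mouse and none higher, with a median log2 ratio of -3.43, beside -0.02 over all genes. Those that did not pass included the gap junction gene Gja1 (586 ± 246 CPM against 566 in cluster 9), the bicarbonate cotransporter Slc4a4 (1940 ± 204 against 2177) and Aldoc (345 ± 123 against 353). Of 17 glial homeostasis genes 8 were lower in every mouse, among them the glutamate transporters Slc1a2 and Slc1a3. Glul, glutamine synthetase, and the potassium channel gene Kcnj10 did not pass, with 649 ± 142 against 723 CPM and 89.1 ± 31.4 against 126.

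Compared with OPC-like cluster 19, 10 of 11 OPC genes were over 2-fold lower in every mouse and Sox10 was the exception. Pdgfra, the growth factor receptor that defines these precursors, was at 1.09 CPM against 582. Of the myelin genes, Pmp22, a membrane protein of peripheral myelin, had its highest mean in cluster 11 at 124 ± 41.3 CPM (SD, n = 3). Mbp was at 49.9 ± 0.877 CPM against 4314 in cluster 16. Thus Mbp, a gene of central compact myelin, was far below the oligodendrocyte-like cluster.

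Next, variation among the nuclei of the cluster was examined. With all nuclei kept, the 12 genes of highest variance to mean ratio in thinned nuclei were Ptprd, Malat1, Apoe, Nrxn3, Cntnap2, Ptn, Kcnd2, Galntl6, Kcnip4, Meg3, Kcnb2 and Apod, many of them widely used in neurons. Without the 253 nuclei that Scrublet called or that exceeded 0.6% of pan-neuronal UMIs, the 12 were Malat1, Apoe, Ptprd, Ptn, Apod, Nnat, Npy, Fabp7, Gabrg3, Cadm2, Cst3 and Macrod2. The remaining 719 nuclei were used for the values that follow, up to the cell cycle genes, a choice made after seeing the data, and those with at least 2000 UMIs entered.

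In these nuclei Mybpc1 and Npy rose and fell together, opposite to Cldn5. The leading principal component of mouse 2 gave 15 genes at each end. At the first end lay Macrod2, Mgst1, Mybpc1, Ptn, Cadm2, Cpe, Pde4d, Npy, Lhfp, Tenm2, Kirrel3, Ptprt, Plppr4, Gdpd4 and Gabrg3. The other end included Prkg1, Cldn5, Slc35f1, Csmd1, Grik2, Igfbp7, Frmpd4, Abca8a, Ntrk3, Rgs6, Nkain2, Adamts12, Gm34838 and Acsbg1. The summed UMIs of both ends were opposed across nuclei with a Spearman correlation of -0.787 in mouse 2 (481 nuclei), from which the genes had been taken, and of -0.782 in mouse 1 (123 nuclei) and -0.825 in mouse 3 (112 nuclei), which had played no part in the choice. These correlations are descriptions across nuclei of 1 mouse that share a library, and because each nucleus holds the same 2000 UMIs the sums are slightly opposed by construction. In astrocyte-like nuclei of cluster 9 the same 30 genes gave 0.0827, -0.109 and 0.0840. Within an end, sums of alternate genes rose together (0.553, 0.536 and 0.569 for the Mybpc1 end and 0.712, 0.686 and 0.658 for the Cldn5 end).

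**Figure D4:**
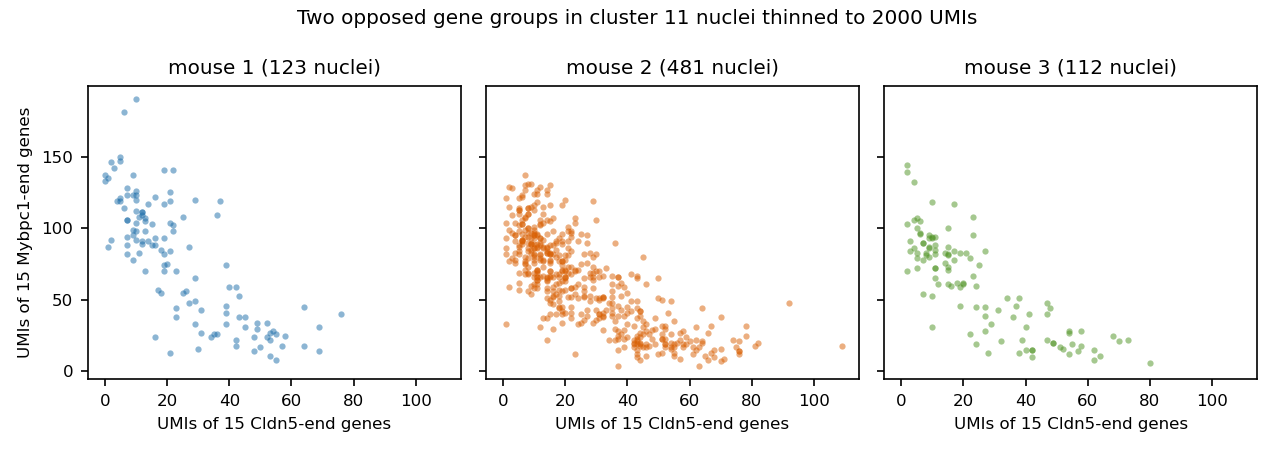
Each point is 1 cluster 11 nucleus without a doublet call or neuronal RNA, thinned to 2000 UMIs, by the summed UMIs of 15 genes of the Cldn5 end (x) and of 15 genes of the Mybpc1 end (y), in the 3 mice. The ends are opposed in each mouse (Spearman -0.782, -0.787 and -0.825), and the genes were chosen in mouse 2 only.

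The share of Mybpc1-end UMIs among those of both ends ran from 25.8% at the 5th percentile to 97.8% at the 95th in mouse 1, from 19.5% to 95.4% in mouse 2 and from 19.6% to 96.7% in mouse 3. Nuclei under 50% were 26.0%, 25.4% and 28.6% of each mouse, and those over 75% were 61.0%, 51.8% and 57.1%. Therefore the proportions under 50% were close in the 3 mice, whereas 13%, 22.9% and 14.3% of nuclei lay between, the most in mouse 2. The share was hardly related to depth, with Spearman correlations of 0.0302, -0.172 and -0.0865 with the UMIs of the nucleus.

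To read other genes along this range, the nuclei of each mouse were ordered by the share and the outer groups of 3 near-equal groups were compared (41, 160 and 37 nuclei at each end). Such a group is a range and not a cell type: 49, 155 and 42 nuclei lay within 5 points of a limit. On the deposited map of the nuclei (UMAP coordinates) the Cldn5-rich groups were centred at -7.58, -7.48 and -7.53 on the first axis and the Mybpc1-rich groups at -6.42, -5.66 and -6.01. Of 18511 genes outside the score, 239 were over 2-fold higher in the Mybpc1-rich group in every mouse (1.29%) and 301 over 2-fold lower (1.63%). Of the 280 genes that stood apart for the cluster and were outside the score, 34 were higher and 24 lower.

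Mybpc1 itself, with its own UMIs left out of the ordering, was at 0, 27.4 and 38.3 CPM in the Cldn5-rich group of mice 1, 2 and 3 and at 789, 1134 and 1269 CPM in the Mybpc1-rich group. Npy, left out in the same way, was at 1715, 1689 and 1662 against 10882, 5544 and 5430 CPM, and Cldn5 at 2579, 1528 and 1515 against 311, 45.4 and 10.6. The ordering still used genes taken from the same component as these 3, so their separation is no independent support. Single nuclei did overlap, here with the 3 genes kept in the ordering. Mybpc1 had a UMI in 11 and Npy in 200 of 238 Cldn5-rich nuclei, and Cldn5 in 22 of 238 Mybpc1-rich nuclei. Thus Mybpc1 marked only a portion of the cluster, while Npy was present at both ends at different levels.

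The other proposed markers changed less along this range, though Foxd3 was somewhat lower in the Mybpc1-rich group in every mouse. Foxd3 was at 399, 348 and 334 CPM in the Cldn5-rich group and 379, 232 and 286 in the Mybpc1-rich group, and was found in 153 and 127 of 238 nuclei. Fabp7 was at 4578, 3976 and 2220 against 4574, 2378 and 2508 CPM. Sox10 was at 793, 548 and 727 against 501, 564 and 705 CPM, and was found in 84.5% and 86.1% of nuclei. Apoe was at 42906, 30165 and 26509 against 43857, 21333 and 18107 CPM. None of these genes passed 2-fold in every mouse. Of the 14 further ensheathing genes outside the score, Prss56 was higher in the Mybpc1-rich group (538, 477 and 583 against 36.9, 0 and 43.8 CPM) and the matrilin gene Matn2 lower (12.2, 22.7 and 26.5 against 307, 285 and 377).

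Toward the Mybpc1 end the largest changes were in Arhgap6, which encodes a GTPase-activating protein, Syk, a tyrosine kinase known from immune cells, Esyt3, Il13ra2 and Adamtsl1. Syk had no UMI in the 41, 160 and 37 nuclei of the Cldn5-rich groups, which allows a share of nuclei with a UMI of up to 7.32%, 1.88% and 8.11% in mice 1, 2 and 3 by counting error, and was found in 14 of 41, 48 of 160 and 17 of 37 nuclei at the other end. At these depths a nucleus without a UMI may still express the gene. Il13ra2, one of the 25 leading genes of the cluster, was at 544, 387 and 419 CPM against 0, 6.23 and 38.3. Aqp1 was at 349, 435 and 366 CPM against 0, 56.1 and 27.3, and Igf1 (insulin-like growth factor) at 801, 685 and 700 against 79.9, 141 and 76.6. Of the 9 microglial genes only Tmem119 was higher at this end, with 67.3, 39.8 and 63.6 CPM against 0, 2.49 and 5.47, while the defining genes Csf1r and C1qa were near 0 at both ends. Of 7 endothelial genes, Abcb1a, which encodes a drug efflux transporter, was at 73.4, 85.3 and 117 CPM and listed at 0 at the Cldn5 end.

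Toward the Cldn5 end the largest changes were in Ntn1, the guidance cue netrin-1, Gm10635, Sfrp5, Postn, which encodes the matrix protein periostin, and Col12a1. Ntn1 was at 203, 198 and 191 CPM against 6.12, 0 and 0, and Postn at 98.3, 113 and 98.4 against 0 in all mice, where 3 UMIs would have given 18.3, 4.26 and 15.9 CPM. Sfrp5 was at 270, 168 and 131 against 0, 14.2 and 0 CPM. A UMI of Postn was found in 9 of 41, 46 of 160 and 8 of 37 nuclei at this end and in none of as many at the other, which allows shares with a UMI of up to 7.32%, 1.88% and 8.11%. Tspan18, also a leading gene of the cluster, was at 578, 556 and 613 CPM against 30.6, 46.9 and 47.7. Other endothelial genes were at or near 0 in the Cldn5-rich group: Flt1 was at 0, 1.25 and 0 CPM and Cdh5 was listed at 0 in all mice.

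**Figure D5:**
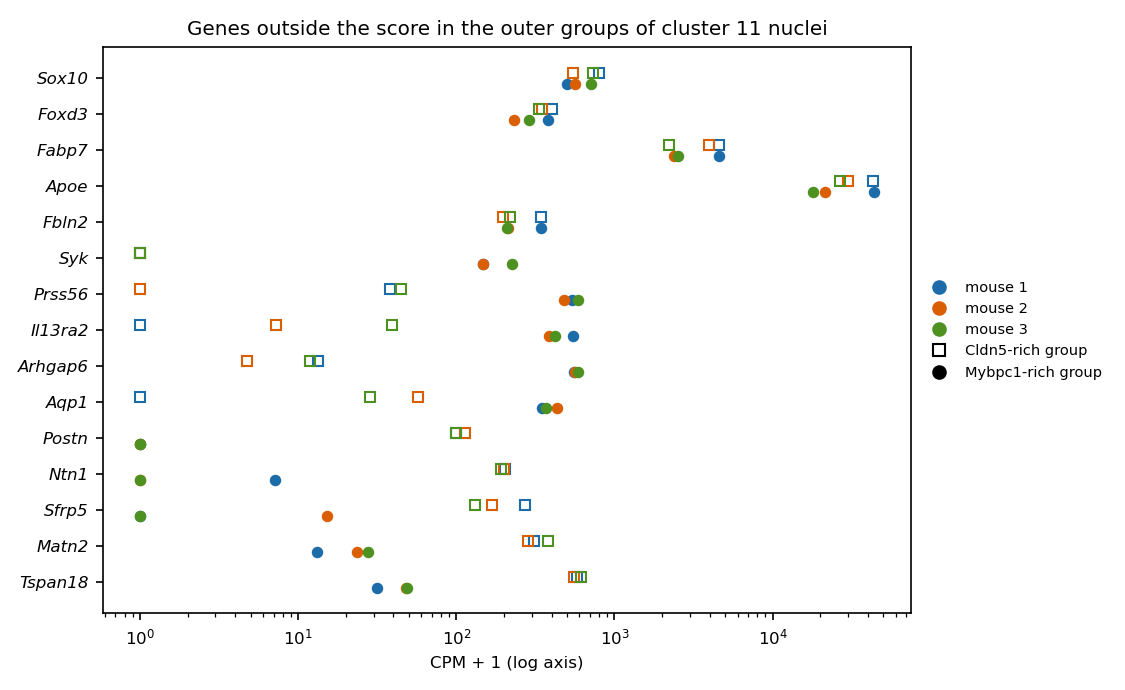
CPM plus 1 (x, log axis) of 15 genes outside the score in the Cldn5-rich group (open squares) and the Mybpc1-rich group (filled circles) of cluster 11 nuclei, per mouse (colour). The first 5 genes did not pass 2-fold in every mouse, the next 5 were higher in the Mybpc1-rich group and the last 5 in the Cldn5-rich group in all 3 mice.

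Gene lists divided between the ends as follows, beside 1.29% and 1.63% over all genes. Matrix and basement membrane genes had 6 of 38 toward the Cldn5 end (Lamb2, Col4a1, Col12a1, Col18a1, Hspg2 and Matn2) and 3 toward the Mybpc1 end (Lama2, Col4a6 and Sparc). Myelin genes had 4 of 18 toward the Cldn5 end (Pmp22, Mag and Mal among them) and none toward the other. Of the cell type lists, astrocyte genes had 3 of 15 toward the Mybpc1 end (Slc1a3, Gjb6 and Ntsr2) and 1 toward the Cldn5 end (Sox9). Oligodendrocyte genes had 3 of 13 toward the Cldn5 end (Mag, Mal and Aspa) and none toward the other. Wnt genes had 5 of 23 toward the Mybpc1 end, among them Lef1, and 3 toward the Cldn5 end. Guidance genes had 6 of 37 toward the Mybpc1 end (Sema5a, Sema6d, Slit2, Ephb1, Efna2 and Efnb2) and 3 toward the Cldn5 end (Sema6a, Plxnd1 and Ntn1). None of the 14 Notch genes and none of the 16 phagocytosis genes passed in either direction. Neither did any of the 7 pan-neuronal genes, but nuclei rich in UMIs of these 7 had been left out beforehand, so their absence is no independent result.

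Dividing nuclei were rare. With all nuclei kept, at least 3 of 9 cell cycle genes were detected together in 0 of 142, 4 of 706 and 1 of 124 nuclei of mice 1, 2 and 3, none of them doublet-like, against 0 of 188, 0 of 757 and 0 of 191 in cluster 9. OPC-like cluster 19 had 4 of 50, 8 of 91 and 1 of 10, of which 0, 3 and 1 were doublet-like. In mouse 3 that single nucleus held 98 of the 122 cell cycle UMIs of the cluster, so the summed level of the list, 162 CPM there against 26.9 and 64.3 in mice 1 and 2, rests on it.

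Finally, RNA of the sorted label was counted. The matrix lists eGFP as a feature, and it had 25.4, 58.8 and 12 CPM in cluster 11 of mice 1, 2 and 3, with a UMI in 5.63%, 21.7% and 4.84% of nuclei. Cluster 9 had 22.1, 58.4 and 40.0 CPM and all other nuclei together 27.0, 76.9 and 51.3. Cluster 0 had 74.0, 125 and 120 CPM and cluster 3 had 75, 170 and 192, whereas clusters 2, 4, 5, 13, 14 and 17 together had 8.43, 42.5 and 24.2. Without Scrublet calls cluster 11 was at 14.5, 53.4 and 11.4 CPM. With all nuclei kept, cluster 11 was thus below all other nuclei together in all 3 mice. It was above the latter 6 clusters in mice 1 and 2 and below them in mouse 3. The order was the same with the calls left out of cluster 11, but the groups it was set against kept theirs. At these levels label RNA made in the nucleus and free label RNA cannot be told apart.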

How the data were processed

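Nuclei of 3 bulbs were sorted and sequenced, 1 library a mouse. The deposited matrices hold unnormalized UMI counts for every gene in every barcode. Per the file headers they came from Cell Ranger 3.0.2; the submitters' notes name the builds mm10 and GRCm38. The authors' deposited table gives for each retained nucleus its cluster, its percent of mitochondrial UMIs and plotting coordinates, a score without unit; the methods give limits of 1000 genes and 5% mitochondrial UMIs for retention.

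Counts were summed per mouse and cluster (65 libraries of at least 10 nuclei; genes with at least 100 UMIs in all) and divided by library totals, in Python 3.11.15 with numpy 2.4.6; ratios have 5 CPM added. No test across genes was run. Doublets were called but kept in the main values; Scrublet was run per mouse through scanpy 1.11.5 with an expected rate of 6%. TMM factors came from edgeR 4.0.16. The rule for standing apart was tested on simulated data. Intervals are exact (Clopper-Pearson). The upper limits given for groups of nuclei without a UMI are instead an approximation from the number of nuclei.

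Named genes were the 25 standing apart most, the 10 largest ratios each way against the most similar cluster, the 12 most variable, the 4 proposed markers, members of fixed lists that stood apart or exceeded all similar clusters, and the 5 most like Mybpc1. Other names, the genes of the range within the cluster among them, were chosen after their values were seen. The members and lists were chosen with earlier results of these data known. Library totals were 58526996, 213891496 and 62929479 UMIs in mice 1, 2 and 3. The mice are the replicates. Some items are not reported here.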

Additional observations from a re-analysis of the deposited data

How the results depend on the processing

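Of 154 repeats under other settings 122 kept their value within the spread between mice, their side of the threshold or, for counts, a range of 1.5 times. None reversed, but counts, detection shares and p-values could not take that label. Some repeats could not move at all. The log2 ratios of the proposed markers do not depend on the gene filter, and the paired depth tests cannot pass 0.05. The number kept is thus no measure of robustness. Genes standing apart above fell from 288 to 190 with at least 1000 UMIs per gene and were 367 to 447 with 1 mouse left out, the highest without mouse 1. Genes standing apart below numbered 0, but 6 with the mean of each nucleus's CPM, 3 with at least 30 nuclei per library, 9 without Scrublet doublets, 8 without nuclei of over 2 times the median UMIs, 11 to 12 with 1 mouse left out and, as alternatives chosen after seeing the data, 13 without glial nuclei of over 0.6% pan-neuronal UMIs and 3 without cluster 21. Genes over 2-fold higher than cluster 9 were 424 with 20 CPM added and 725 to 916 with 1 mouse left out. Genes over 2-fold lower were 362 with 20 CPM added, 910 without nuclei with neuronal RNA and 630 to 894 with 1 mouse left out, the highest without mouse 2. The log2 ratio of Mybpc1 was 4.07 with 20 CPM added, 6.01 without Scrublet doublets and 4.14 to 5.76 with 1 mouse left out. That of Foxd3 was 5.89 with 1 CPM added, 3.58 with 20 and 4.44 to 5.35 with 1 mouse left out. That of Npy was 3.45 without nuclei with neuronal RNA and 2.97 to 3.36 with 1 mouse left out. Fabp7 ranged from 3.13 to 3.58, the ensheathing markers standing apart from 9 to 10, the median UMIs from 4508 to 5162 and the mean share of nuclei from 2.52% to 2.98% with 1 mouse left out. The mean share was 1.42% with at least 2000 genes per nucleus, against 2.79%, since these nuclei are shallow. The share of nuclei with a Mybpc1 UMI was 31.2% thinned to 1000 UMIs and 53.4% without thinning, and depth thus limits every such share. With fewer libraries a gene has fewer values to exceed; for the other changes the cause was not tested. The depth tests paired by mouse (replicate block), added after seeing the data, gave exact permutation p of 0.25 to 0.50 against 0.10 to 0.60 unpaired, and none passed 0.05; no test across genes was run, so none could be paired.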

Other observations

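Without Scrublet doublets 9 genes were lower in cluster 11 than in every other library, a result seen after the values were known. Ctnnd2, which encodes delta-catenin, was at 143, 92.9 and 109 CPM in mice 1, 2 and 3, against 167 in the lowest other library and a mean of 3003 in cluster 9. Pcdh7, a protocadherin gene, was at 234, 144 and 205 CPM against 251 and 1399, and Ank2, the membrane adaptor ankyrin-2, at 367, 305 and 333 CPM against 415 and 2524. The other 6 (Atp6v1h, Stard7, Sh3gl2, Kcnq1, Ints10 and Atp2c1) were at 12.7 to 86.1 CPM. With all nuclei kept none of the 9 stood below every other library, and the neuronal RNA of doublet-like nuclei moves with these counts; its part in them was not tested.

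Some genes were graded along the range between nuclei. Cxcr4 was at 55.3, 58.6 and 93.0 CPM in the Cldn5-rich group, 262, 140 and 205 in the middle group and 501, 267 and 477 in the Mybpc1-rich group of the 3 mice. Aspa, which encodes an acetylaspartate-cleaving enzyme known from oligodendrocytes, went the other way with 1100, 907 and 1302, then 583, 475 and 762, then 440, 325 and 329 CPM. Frzb, a secreted Wnt antagonist, was not over 2-fold higher in every mouse, at 516, 503 and 547, then 970, 643 and 700, then 1302, 864 and 668 CPM, so mouse 3 did not rise from the middle to the Mybpc1-rich group.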
